A study of Homo sapiens with 12 samples.

Results

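Messenger RNA of 10 cytokine genes was followed in the ovarian cancer line CAOV3, out of 19677 genes in the count tables. The genes were CSF2, CSF1, LIF, IL6, IL18, IL1A, CCL20, CXCL8, CXCL1 and CXCL2. They were found by their symbols, and the set was chosen by the level of CSF2, which was high in cells given both treatments of the study and low in control cells. That contrast is therefore described without a test. CAOV3 is an established human line, labelled as an epithelial cell of high grade serous type and as wild type. All cells were grown in DMEM with 10% serum and antibiotics. Control cells received DMSO, the solvent. Ascites cells received ovarian cancer ascites at 10% of the medium together with DMSO, bezafibrate cells received 200 uM of the drug, and combination cells received the drug and the fluid. The treatments lasted 16 hours, a time that the labels of the control libraries do not repeat, and DMSO is named only for the cells without the drug. Each of the 4 groups held 3 libraries. The labels say neither whether these came from separate cultures nor how many donors gave the fluid, so p-values measure the spread between these libraries, which may be technical.

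Cytokines are secreted proteins by which cells signal to each other. The protein of CSF2, known as GM-CSF, and that of CSF1, known as M-CSF, drive the growth and differentiation of macrophages and related myeloid cells. LIF and IL6 belong to a family that signals through the shared receptor chain gp130. IL18 and IL1A belong to the interleukin-1 family, and the chemokines CCL20, CXCL8, CXCL1 and CXCL2 attract leukocytes. In ovarian cancer several of these proteins are found in ascites, the fluid that fills the abdomen, and carcinoma cells are one of their sources. Bezafibrate is a fibrate, a class of lipid-lowering drugs that activate the PPAR nuclear receptors.

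CSF2 and CCL20 were the members whose libraries from cells given bezafibrate alone lay above all libraries from cells without the drug, so the sequences in front of these genes are printed here. The share of all genes whose groups separate in this way is not given, here or for the other members below. They are the 250 bases upstream of the annotated start, from RefSeq on GRCh38.p14, at chr5:132073539-132073788 on the + strand for CSF2 and at chr2:227813592-227813841 on the + strand for CCL20. Capitals mark the matches of the motifs searched.
CSF2: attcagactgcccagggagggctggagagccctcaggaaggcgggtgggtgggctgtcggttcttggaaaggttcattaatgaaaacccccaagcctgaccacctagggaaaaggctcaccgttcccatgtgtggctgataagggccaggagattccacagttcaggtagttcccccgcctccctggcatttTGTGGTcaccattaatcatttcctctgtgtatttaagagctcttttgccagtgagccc
CCL20: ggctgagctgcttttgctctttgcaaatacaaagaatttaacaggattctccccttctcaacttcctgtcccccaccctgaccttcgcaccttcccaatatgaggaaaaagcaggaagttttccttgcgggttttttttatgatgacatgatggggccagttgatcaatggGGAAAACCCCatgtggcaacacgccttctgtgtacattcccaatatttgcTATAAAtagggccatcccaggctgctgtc
The motifs were the AP-1 site TGANTCA, the NF-kB consensus, the TATA box TATAAA and, for PPAR, the repeat of AGGTCA with 1 base between the copies, all on both strands. None of these 4 motifs had an exact match in the CSF2 window. Its capitals mark TGTGGT, a core of RUNX binding sites, at positions -58 to -53 from the gene start, and this motif was added after the sequence had been seen. In the CCL20 window the capitals mark an NF-kB match on the minus strand at -79 to -70 and a TATA box at -29 to -24, which do not overlap. Windows of the same length in front of 35116 annotated starts held TGTGGT in 11% of cases, the NF-kB consensus in 5.21%, the TATA box in 10.7%, the AP-1 site in 6.57% and the PPAR repeat in 0.0171%. A match is a run of letters and not a bound site. Only exact matches were searched, so a window without a match may still hold a variant of the site. The PPAR repeat was so rare over all windows that its absence says little. Of the 10 members, 7 had an entry, and CSF1, LIF and IL18 had none. Among the 7, the NF-kB consensus was also matched in front of CXCL1, CXCL2 and IL6. The TATA box and the AP-1 site were each matched in front of CXCL8 and IL1A. These matches were thus not particular to the members whose libraries separated with the drug.

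Total counts per library ranged from 11831093 to 18762759, so 1 read in a single library stood for less than 0.1 CPM (the read count scaled to a common library size). A filter on low counts kept 12470 genes, among them 4 members, CSF2, CSF1, LIF and IL18. The other 6 members, CCL20, CXCL8, CXCL2, IL1A, CXCL1 and IL6, fell below it, so most of the set was barely transcribed or not detected in these cells. The 6 libraries with the drug lay apart from the 6 without it on the first principal component, which carried 37.0% of the variance. Combination replicate 3 stood apart on the second component, with a score of -22.4 against -4.37 to 9.84 for the others. Fold changes and calls of CSF2, CSF1, LIF and IL18 that rest on the combination group are therefore also given without it, and those of other named genes where a call was lost. Of the markers of the labelled cell type, KRT7, KRT8, KRT18, EPCAM and CDH1 were transcribed, while PAX8 had group means of 0.378 to 1.11 CPM, WT1 had 15 reads and MUC16 had 10 reads in all 12 libraries, and SOX17 had none. Of 23 markers of blood cells, fibroblasts and mesothelial cells, 9 had 0 reads in every library, including PTPRC, CD3E, TYROBP, S100A8, S100A9 and FAP. Others were detected. CD14, CALB2, LYZ, HBA1 and HBA2 had 460, 149, 123, 94 and 51 reads in all and were not called with the drug. UPK3B, below the filter, had means of 0.168 CPM in control, 0.146 in ascites, 0.450 in bezafibrate and 0.630 in combination cells. The summed level of the 23 markers was 14.9 to 16.6 CPM in control, 14.3 to 17.3 in ascites, 11.7 to 12.96 in bezafibrate and 11.9 to 14.9 in combination libraries, with COL1A1 and COL3A1 called lower with the drug. CDH1 and KRT7 were called higher with the drug. So was PAX8, in bezafibrate against control only (log2 fold change 1.48, edgeR adjusted p 0.0252), a call lost with DESeq2 (0.0786) and without control replicate 2 or 3 or bezafibrate replicate 1 or 2 (up to 0.17). The part of any of these genes in the cytokine values was not tested.

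CSF2 (ENSG00000164400.6, chr5:132073789-132076170) was low in cells without bezafibrate and several times higher in cells with it, whether or not ascites was present. Its level was 1.02, 0.882 and 0.714 CPM in the control libraries, from 15, 12 and 9 reads. The ascites libraries gave 1.21, 1.17 and 0.741 CPM, from 17, 15 and 11 reads. These 2 groups overlapped, and both were a few reads deep. The bezafibrate libraries gave 5.55, 5.97 and 5.50 CPM, from 92, 111 and 80 reads. The combination libraries gave 7.80, 7.64 and 6.84 CPM, from 133, 90 and 81 reads. All 6 libraries with the drug lay above all 6 without it, and all 3 combination libraries lay above all 3 with the drug alone. Group means were 0.873 ± 0.155 in control, 1.04 ± 0.261 in ascites, 5.67 ± 0.262 in bezafibrate and 7.43 ± 0.516 CPM in combination cells (SD, n = 3). Neighbours in this order were within each other's spread for control and ascites only. In RNA from whole cultures, more cells with a transcript and more transcript per cell cannot be told apart.

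**Figure D1:**
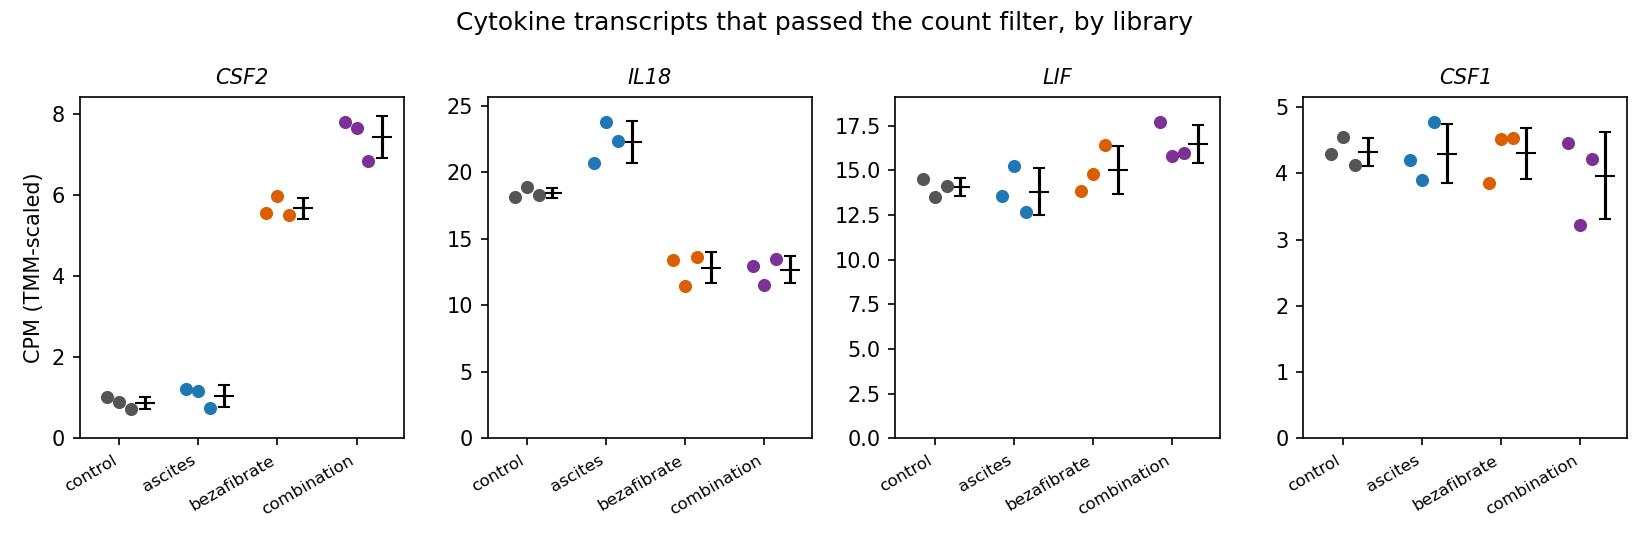
Level in CPM (linear axis from 0) of the 4 cytokine transcripts that passed the count filter, 1 point per library, with the mean and SD of each group beside it. CSF2 sits at 0.714 to 1.21 CPM in the 6 libraries without bezafibrate and at 5.50 to 7.80 in the 6 with it, while IL18 is lower in every library with the drug (11.5 to 13.6) than in any without it (18.1 to 23.8).

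In the contrast by which it was chosen, combination against control, CSF2 had a log2 fold change of 3.07 (SE 0.210), which is 8.40-fold and placed it 11th from the top among 12470 genes. Without combination replicate 3 this was 3.12. Each of the other contrasts but 1 shares the control or the combination libraries with that choice, and CSF2 is described there without a test. Bezafibrate against control gave 2.68 (SE 0.215) and combination against ascites gave 2.84 (SE 0.203), or 2.89 without combination replicate 3. Ascites against control gave 0.23 (SE 0.308) and combination against bezafibrate 0.39 (SE 0.144), or 0.44 without combination replicate 3. The difference between the ascites changes with and without the drug, the interaction, was 0.16 with a 95% interval from -0.54 to 0.87, or 0.22 without combination replicate 3. The differences made with the drug were the larger ones on this scale, and the interval of the change with ascites alone, -0.40 to 0.85, included 0. Bezafibrate against ascites is the pair of groups with no library in the contrast behind the choice. There CSF2 rose 5.47-fold (95% interval 4.09 to 7.32), with a log2 fold change of 2.45, SE 0.207 and an edgeR adjusted p of 4.23e-12, and all 3 bezafibrate libraries lay above all 3 ascites libraries. In that contrast 18.5% of the 12470 genes were called at an adjusted p under 0.05, and CSF2 ranked 24th from the top.

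CSF1 (ENSG00000184371.14, chr1:109910506-109930992), the other colony-stimulating factor of the set, did not differ between groups beyond its spread. The means were 4.33 ± 0.217 CPM in control, 4.30 ± 0.446 in ascites, 4.30 ± 0.386 in bezafibrate and 3.97 ± 0.653 in combination cells (SD, n = 3). Single libraries ranged from 3.23 CPM in combination replicate 2 to 4.78 in ascites replicate 3, with 38 to 84 reads, and every pair of groups overlapped. Its log2 fold change was -0.0082 in bezafibrate against control, with a 95% interval from -0.34 to 0.32 (edgeR adjusted p 0.984). With ascites present the drug gave -0.10, with an interval from -0.45 to 0.24 (edgeR adjusted p 0.759), or -0.13 without combination replicate 3. A change of CSF1 of the size of that of CSF2 lies outside these intervals.

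Of the gp130 cytokines, LIF was well detected and IL6 was not. LIF (ENSG00000128342.5, chr22:30240453-30246759), which keeps stem cells undifferentiated and acts on many tissues, was at 14.5, 13.5 and 14.1 CPM in control and at 13.5, 15.2 and 12.7 CPM in ascites libraries. It was at 13.8, 14.8 and 16.4 CPM with bezafibrate and at 17.7, 15.8 and 16.0 CPM in the combination libraries. The combination libraries lay above all control and ascites libraries and overlapped with those of bezafibrate alone. In combination against ascites LIF rose by a log2 fold change of 0.27 (SE 0.0942, 1.21-fold, edgeR adjusted p 0.0421). This call was lost in 7 of 13 alternative analyses, with an adjusted p of up to 0.208, among them those without ascites replicate 1 or 3 (0.117 and 0.208), without combination replicate 1 (0.205) and DESeq2 (0.139), and it was kept without combination replicate 3 (0.29, adjusted p 0.0351). In bezafibrate against control the log2 fold change of LIF was 0.09 with an interval from -0.10 to 0.28 (edgeR adjusted p 0.598). LIF overlaps the antisense genes LIF-AS1 and LIF-AS2, and whether the counting used strand is not given in the sources used here, so its reads are uncertain to that extent. IL6, an inducer of the acute phase response that is often measured in ascites, had no read in any library, so a level of up to 0.0173 CPM over the 12 libraries together remains possible (3 reads, counting error only).

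Of the interleukin-1 family members, IL18 was low where CSF2 was high and IL1A was near 0. IL18 (ENSG00000150782.12, chr11:112143260-112164094) encodes a precursor that caspase-1 cleaves into a cytokine active on T and natural killer cells. The control libraries gave 18.1, 18.9 and 18.3 CPM, and the ascites libraries 20.7, 23.8 and 22.4 CPM. The bezafibrate libraries gave 13.4, 11.5 and 13.6 CPM, and the combination libraries 12.96, 11.6 and 13.5 CPM. Ascites libraries were thus all above control, the 6 libraries with the drug were all below the 6 without it, and the 2 groups with the drug overlapped. With bezafibrate IL18 fell by 0.53 on the log2 scale against control (SE 0.0891, edgeR adjusted p 1.56e-05). In combination against ascites it fell by 0.81 (SE 0.0896, edgeR adjusted p 3.72e-09), or by 0.85 without combination replicate 3, which leaves 0.571 of the level with ascites alone. In bezafibrate against ascites it fell by 0.80 (SE 0.0862, edgeR adjusted p 1.76e-09).

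The change of IL18 with ascites alone was a log2 fold change of 0.27 (SE 0.0839). Its unadjusted p was 0.00258 and its edgeR adjusted p over all genes 0.527, so it was not called. With the drug present the same change was -0.0064 (SE 0.0954, edgeR adjusted p 1), or -0.05 without combination replicate 3. The difference of these 2 changes was -0.28 (SE 0.127), with an unadjusted p of 0.0351 and an edgeR adjusted p of 0.999, and was not called (-0.32 without combination replicate 3, adjusted p 0.998). IL1A, an alarm signal released by injured epithelial cells, had 13 reads in all. They were 1, 0 and 1 in control, 0, 1 and 1 in ascites, 1, 3 and 2 in bezafibrate and 0, 0 and 3 in combination libraries, too few for a comparison.

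Calls were counted over the 9 members other than CSF2, of which only 3, CSF1, LIF and IL18, passed the filter and could be called. In bezafibrate against control 1 member, IL18, was called, where 17.6% of all genes tested were called. Set against ascites, the combination called 2 members, IL18 and LIF, beside 17.8% of all genes tested. In ascites against control and in combination against bezafibrate 0 members were called by edgeR and 0 by DESeq2, where 0.0882% and 0.128% of all genes were called. At an unadjusted p under 0.05, IL18 alone passed in the first of these and no member in the second. In the interaction 0 members were called by edgeR and 0 by DESeq2, and 0% of all genes tested were called by edgeR. Of the 3 members counted in this fit, IL18 alone had an unadjusted p under 0.05 there. With 4 members in the fit and 3 of them counted, these counts say little about the set as a whole. In combination against control, where no member was tested, the log2 fold changes were -0.54 for IL18, 0.24 for LIF and -0.11 for CSF1, or -0.58, 0.26 and -0.14 without combination replicate 3.

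**Figure D2:**
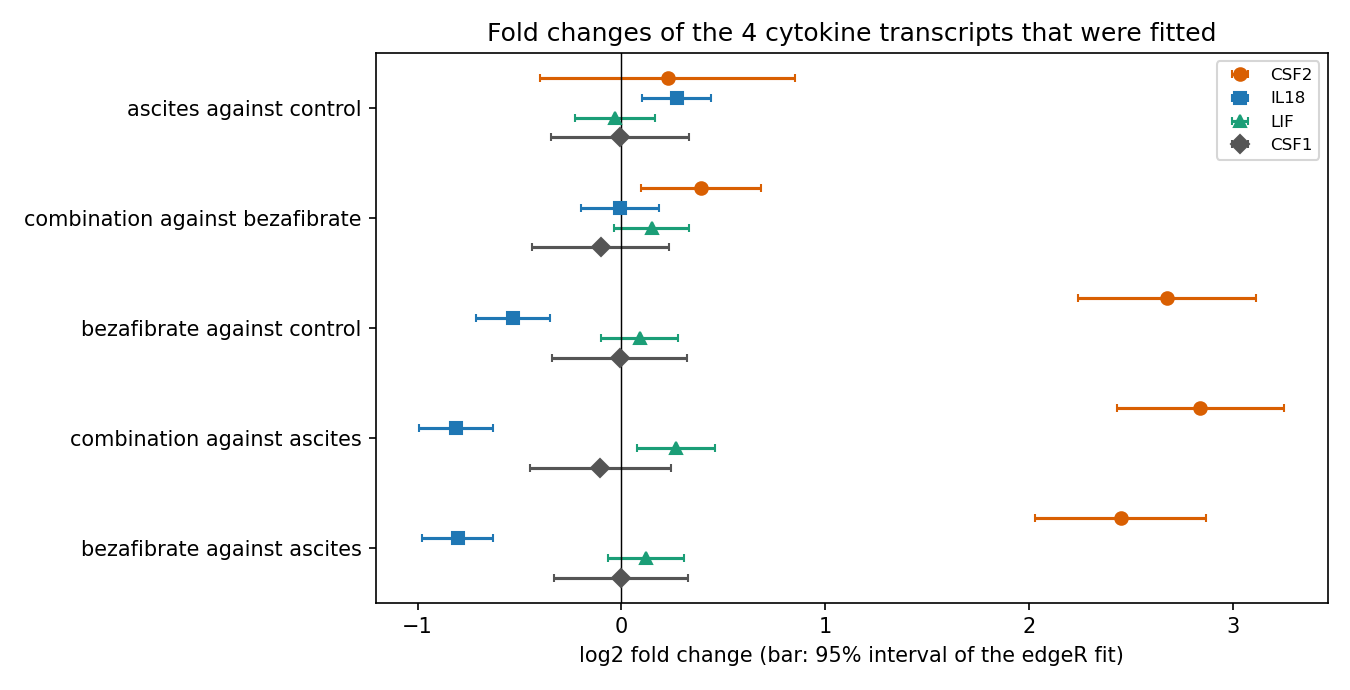
Log2 fold change (points) with the 95% interval of the edgeR fit (bars) for the 4 cytokine transcripts that passed the count filter, in 5 pairs of groups. CSF2 lies at 2.45 to 2.84 in the 3 pairs that set the drug against its absence and IL18 at -0.81 to -0.53, while the intervals of CSF1 include 0 in all 5.

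The chemokines were at the edge of detection. CCL20 (ENSG00000115009.13, chr2:227813842-227817556), which attracts CCR6-bearing lymphocytes and dendritic cells, had 4, 0 and 2 reads in control and 2, 3 and 2 reads in ascites libraries. It had 9, 13 and 7 reads in bezafibrate libraries and 12, 3 and 10 reads in combination libraries. The bezafibrate libraries lay above every library without the drug, and combination replicate 2, with 0.255 CPM, lay between the highest ascites library (0.234) and the highest control library (0.273). Pooled over its 3 libraries, each group had 0.147 (0.0539 to 0.319), 0.168 (0.0675 to 0.346), 0.583 (0.391 to 0.838) and 0.615 CPM (0.398 to 0.907) in control, ascites, bezafibrate and combination cells, with exact 95% Poisson intervals that cover counting error only. CCL20 was below the count filter, and was tested only in alternative fits. In the fit without the filter, over 16403 genes, its log2 fold change was 1.92 in bezafibrate against control (SE 0.698, edgeR adjusted p 0.0426). It was 1.81 in combination against ascites (SE 0.689, edgeR adjusted p 0.0584) and 1.73 in bezafibrate against ascites (SE 0.675, edgeR adjusted p 0.0639), which did not pass.

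CXCL8, a neutrophil attractant also known as interleukin-8, had 46 reads in all. They were 2, 7 and 5 in control, 1, 3 and 1 in ascites, 4, 0 and 5 in bezafibrate and 10, 1 and 7 in combination libraries. All pairs of groups overlapped, and within the combination group the counts ran from 1 to 10. Without the filter, its log2 fold change was 1.79 in combination against ascites (SE 0.807, unadjusted p 0.0267, edgeR adjusted p 0.135) and was not called. The interaction of CXCL8 in that fit was 2.67 (SE 1.1, edgeR unadjusted p 0.0158), from these few reads, and was not called either. CXCL2, another ligand of the neutrophil receptor CXCR2, had 48 reads, with 1 to 4 per library in control and ascites, 5, 12 and 1 in bezafibrate and 9, 2 and 1 in combination libraries. CXCL1, a close relative of it, had 1 read, in combination replicate 1. CXCL1, CXCL2 and CXCL3 are near-identical paralogs, so the division of reads among them is uncertain.

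**Figure D3:**
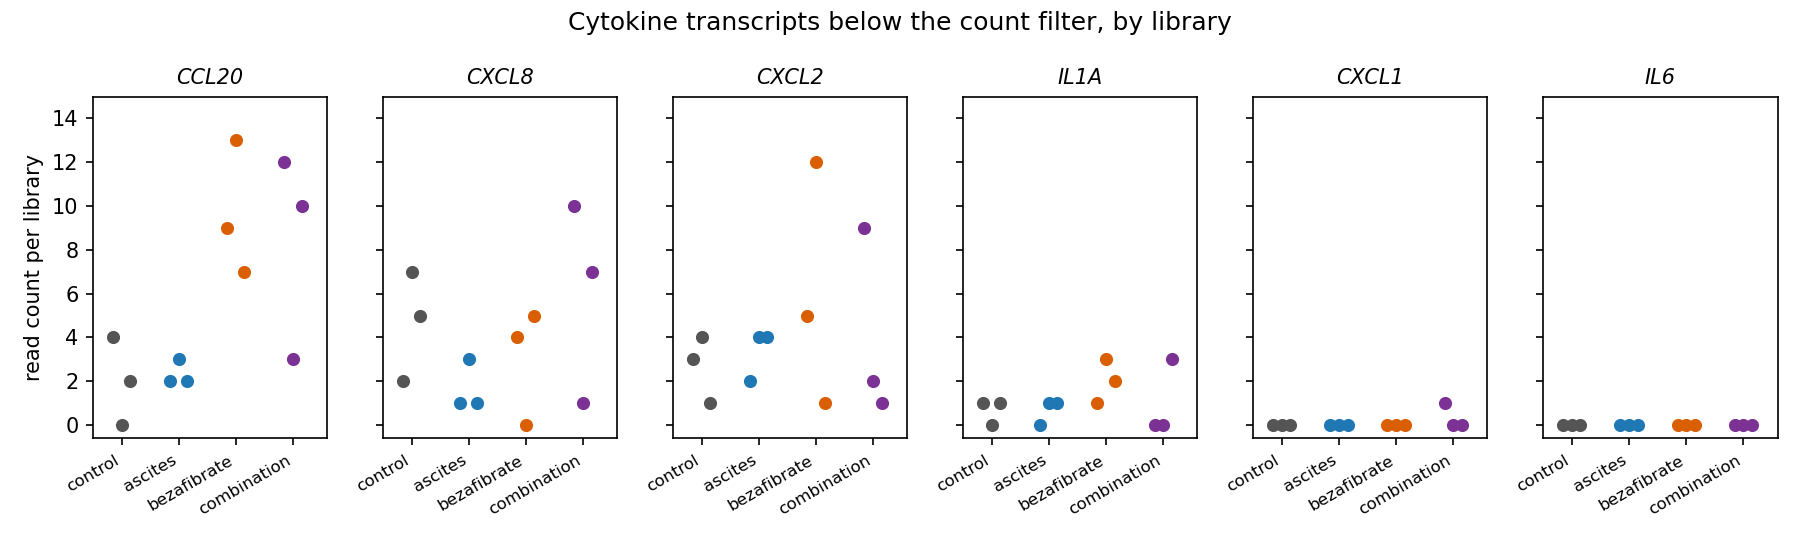
Read count per library (linear axis, not scaled for depth) of the 6 cytokine transcripts below the count filter, 1 point per library. CCL20 reaches 7 to 13 reads in the bezafibrate libraries against 0 to 4 in those without the drug, and IL6 is at 0 in all 12.

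Receptors and antagonists of these cytokines were mostly below the filter. Of 16 such genes, 5 were tested and 5 had 0 reads in all 12 libraries. The latter were CSF2RA and CSF2RB, the receptor chains for GM-CSF, CXCR1 and CXCR2, the receptors of CXCL8, and IL18RAP, a chain of the IL18 receptor. CSF2RA lies in a region with an identical copy on the other sex chromosome, so its 0 depends on how such reads were assigned. CSF1R, the receptor of CSF1, had 13 reads. IL6ST, which encodes gp130, was at 112 to 113 CPM in every group and was not called. In bezafibrate against control 0 receptor genes were called higher and 2 lower, where 17.6% of all genes were called. IL1R2, a decoy receptor for interleukin-1, fell by 0.63 (SE 0.178, edgeR adjusted p 0.00993) from 6.76 ± 1.79 to 4.35 ± 0.713 CPM. IL6R, the binding chain for interleukin-6, fell by 0.37 (SE 0.106, edgeR adjusted p 0.0108) from 13.8 ± 1.34 to 10.7 ± 0.851 CPM. Each of these calls was lost when 1 of several libraries was left out. For IL1R2 these were control replicate 2 or 3 and bezafibrate replicate 1 or 2 (adjusted p up to 0.0897), and for IL6R control replicate 1 or 2 and bezafibrate replicate 2 (up to 0.0975). Against ascites the combination called 0 of the 5 (by DESeq2 also 0, with IL1R2 and IL1RAP at an unadjusted p under 0.05), beside 17.8% of all genes. Their median log2 fold change was -0.20 and -0.21 in these 2 contrasts, beside -0.0037 in each over all genes tested.

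Other cytokines and chemokines showed a few changes in both directions. Of 44 genes, 16 were tested and 9 had 0 reads in every library. In bezafibrate against control 1 was called higher and 1 lower, 2 of 16 beside 17.6% of all genes. KITLG, the ligand of the receptor KIT and a growth factor for mast cells and blood progenitors, rose from 1.76 ± 0.134 to 3.23 ± 0.420 CPM (log2 fold change 0.86, SE 0.217, edgeR adjusted p 0.00334). TNFSF15, a TNF-like cytokine that acts on T cells and blood vessels, fell by 0.99 (SE 0.101, edgeR adjusted p 5.49e-10) from 18.3 ± 1.26 to 9.18 ± 0.490 CPM. In combination against ascites 2 were called higher and 2 lower, 4 of 16 beside 17.8% of all genes. There KITLG rose by 0.67 (SE 0.211, edgeR adjusted p 0.0226), a call lost with DESeq2 (0.0856) and without ascites replicate 1 (0.0885), ascites replicate 3 (0.0547) or combination replicate 3 (0.125). IL15, a growth factor for natural killer and memory T cells, rose from 5.40 ± 0.0631 to 7.51 ± 0.658 CPM (0.47, SE 0.133, edgeR adjusted p 0.00885). TNFSF15 fell by 0.72 (SE 0.107, edgeR adjusted p 1.68e-06). The other gene called lower was TNFSF10, with 0.987 ± 0.0921 and 0.345 ± 0.158 CPM, which is below the level set for naming and was named after its values had been seen. Its call (edgeR adjusted p 0.0355) was lost in 6 of 12 alternatives, with DESeq2 (0.0954) and without any 1 ascites library, combination replicate 2 or combination replicate 3 (up to 0.113). CSF3, the third colony-stimulating factor, had 1 read and IL1B had 4 reads in all. The median over the 16 was 0.03 in bezafibrate against control and 0.18 in combination against ascites, beside -0.0037 in each over all genes tested.

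Among 26 transcription factors that act on cytokine genes, all were tested. In bezafibrate against control 8 were called higher and 1 lower, and in combination against ascites 10 higher and 1 lower. Over all 12470 genes 17.6% (1257 higher, 942 lower) and 17.8% (1305 higher, 909 lower) were called. The median log2 fold change of the factors was 0.03 and 0.11, beside -0.0037 in each over all genes. CEBPD, a C/EBP factor of the acute phase response, rose by 1.11 (SE 0.170, edgeR adjusted p 3.22e-06) and 0.91 (SE 0.169, edgeR adjusted p 7.74e-05), and its relative CEBPB by 0.60 (SE 0.0662) and 0.47 (SE 0.0671). JUN, a subunit of AP-1, rose by 0.82 (SE 0.0620, edgeR adjusted p 2.54e-13) and 0.88 (SE 0.0624, edgeR adjusted p 5.63e-14), from 34.7 ± 2.45 CPM in control to 61.6 ± 3.32 with bezafibrate. Other JUN and FOS genes were mixed. JUNB (0.30 and 0.33) and FOSL2 (0.26 and 0.26) were called higher in both contrasts. JUND, FOS, FOSB and FOSL1 were called in neither, at -0.33 to -0.02. These calls were not followed through the alternative analyses. RUNX2, a factor of bone and cartilage development, fell by 0.41 (SE 0.0836, edgeR adjusted p 0.000271) and 0.38 (SE 0.0865, edgeR adjusted p 0.00119). RUNX1, another RUNX factor, was at 0.10 (edgeR adjusted p 0.151) and 0.16 (edgeR adjusted p 0.012), the latter call being lost without ascites replicate 3, combination replicate 1 or combination replicate 2 (up to 0.0592). Of the 5 NF-kB subunits, RELA, RELB, REL and NFKB1 were called in neither contrast, with log2 fold changes between -0.04 and 0.19. NFKB2 was at 0.11 (edgeR adjusted p 0.134) and 0.19 (edgeR adjusted p 0.00811), the latter call being lost without ascites replicate 3 or combination replicate 2 (up to 0.0977). RUNX1, the NF-kB subunits and the JUN and FOS genes other than JUN were named after their values had been seen.

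**Figure D4:**
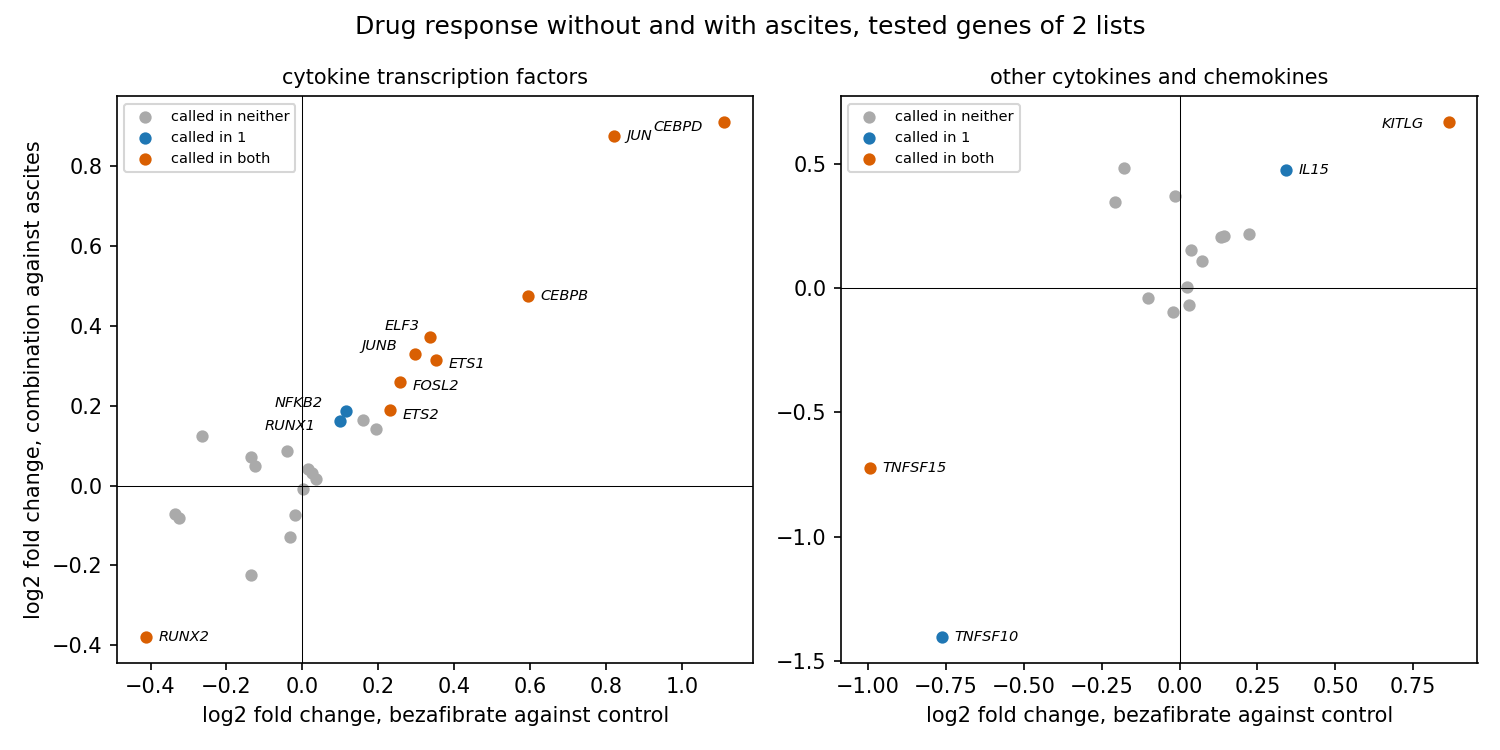
Log2 fold change of each tested gene in combination against ascites (y axis) against that in bezafibrate against control (x axis), for 26 cytokine transcription factors (left) and 16 other cytokines and chemokines (right). Colours show in how many of the 2 contrasts edgeR called the gene, with CEBPD, JUN, CEBPB and KITLG among those high in both and RUNX2 and TNFSF15 among those low in both.

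CSF2 mRNA is known to carry AU-rich elements, which decay factors bind. Of 17 genes for decay and stability factors, all tested, 1 was called higher and 2 lower in bezafibrate against control, and 2 higher and 2 lower in combination against ascites. These counts of 3 and 4 stand beside 17.6% and 17.8% of all genes called, so the share in bezafibrate against control was that of all genes. ZC3H12A, the RNase Regnase-1, rose by 0.49 in both (SE 0.117 and 0.122, edgeR adjusted p 0.00179 and 0.00314). KHSRP, a decay-promoting protein, fell by 0.12 (SE 0.0309, edgeR adjusted p 0.00499) and by 0.10 (SE 0.0312, edgeR adjusted p 0.0147), the second call being lost without ascites replicate 3 (0.0765) or combination replicate 3 (0.108). ZC3H12C, a relative of Regnase-1, fell by 0.25 in bezafibrate against control (edgeR adjusted p 0.00432, and 0.0866 without control replicate 2). In combination against ascites XRN1, an exonuclease, was at 0.18 (edgeR adjusted p 0.0414) and ZFP36L1, which binds AU-rich elements, at -0.12 (edgeR adjusted p 0.0464). These calls were lost in 9 and 6 of 13 alternatives, with adjusted p up to 0.14 and 0.22. Both were lost with DESeq2 (0.137 and 0.0816) and without combination replicate 3 (edgeR adjusted p 0.14 and 0.189).

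Of 12 genes for the processing of the interleukin-1 family, 7 were tested. In bezafibrate against control 2 of them were called and in combination against ascites 1, beside 17.6% and 17.8% of all genes. CASP1, which encodes an enzyme that cleaves the IL18 precursor, had 0 reads in all 12 libraries, as had CASP5 and NLRP3. CASP4 was at 14.6 to 17.1 CPM in the group means and was not called. CAPN2, a subunit of the calpain that cleaves the IL1A precursor, rose by 0.19 (SE 0.0293, edgeR adjusted p 3.24e-06) and 0.21 (SE 0.0295, edgeR adjusted p 4.08e-07) in bezafibrate against control and in combination against ascites. CAST, which encodes the calpain inhibitor calpastatin, fell by 0.18 in the first of these (SE 0.0354, edgeR adjusted p 0.000137), and its locus overlaps other genes whose reads could be counted with it.

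Of 13 genes around CSF2 on chromosome 5, 8 were tested. In both bezafibrate against control and combination against ascites 4 of the 8 were called higher and 0 lower, where 17.6% and 17.8% of all genes were called. The medians were 0.64 and 0.62, beside -0.0037 in each over all genes. IRF1, an interferon-regulated transcription factor that starts 408 kb from the start of CSF2, rose by 0.99 (SE 0.0747, edgeR adjusted p 2.24e-13) and 1.04 (SE 0.0769, edgeR adjusted p 1.24e-13), from 19.3 ± 1.96 CPM in control to 38.3 ± 1.52 with bezafibrate. SLC22A5, the carnitine transporter, at 296 kb, rose by 0.69 (SE 0.0993, edgeR adjusted p 1.09e-06) and 0.66 (SE 0.0997, edgeR adjusted p 2.75e-06). SLC22A4, its relative at 221 kb, rose by 0.80 (SE 0.216, edgeR adjusted p 0.00623) and 0.78 (SE 0.217, edgeR adjusted p 0.00865). These calls of SLC22A4 were lost without control replicate 2 (0.056), and without ascites replicate 2 (0.0663) or combination replicate 2 (0.12). SLC22A4 and SLC22A5 both overlap the noncoding RNA gene MIR3936HG, whose reads could be counted with either. P4HA2, a collagen prolyl hydroxylase at 116 kb, was the fourth, named after its values had been seen, at 0.58 in both contrasts, and it overlaps the antisense gene P4HA2-AS1. IL3, the nearest cytokine gene, 13.1 kb on the other side, had 0 reads, as had IL4, and IL5 and IL13 had 2 and 1. PDLIM4 at 184 kb, also named after its values had been seen, was at 0.69 and 0.70 (edgeR adjusted p 0.0919 and 0.126). Neither PDLIM4 nor RAD50 at 483 kb was called in either contrast.

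**Figure D5:**
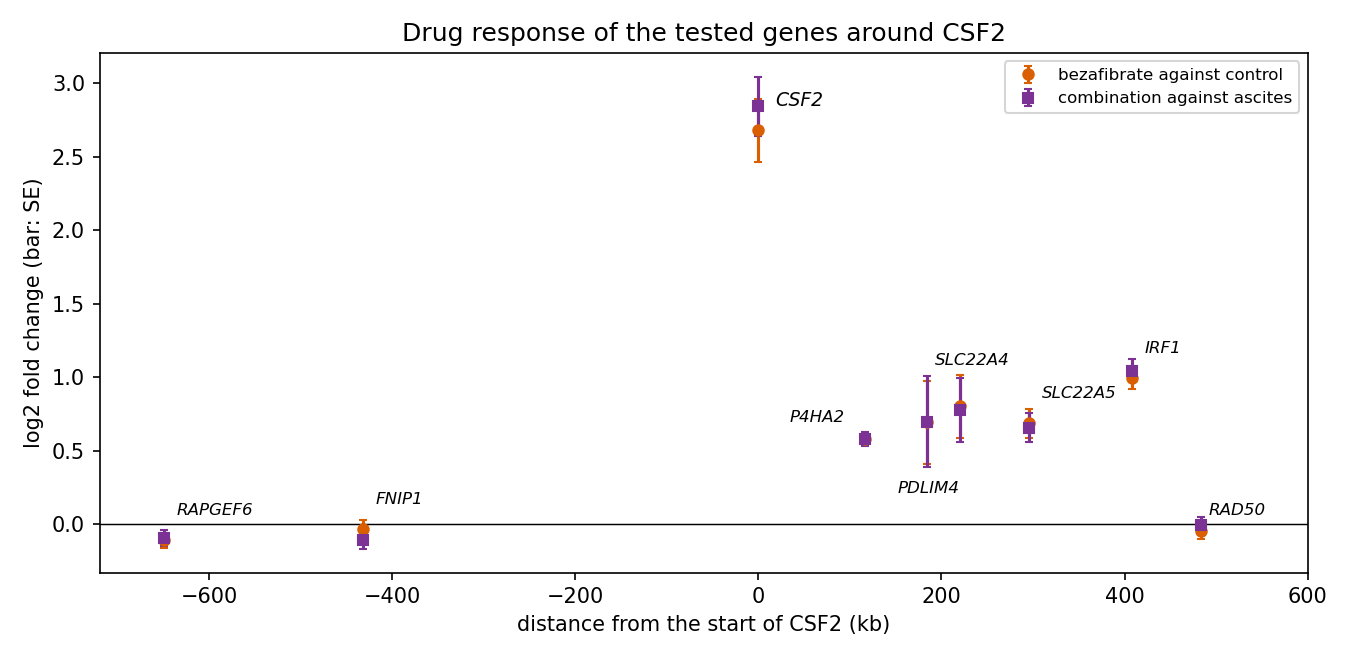
Log2 fold change (points) with SE (bars) of CSF2 and the 8 tested genes around it, against the distance of each gene's start from that of CSF2 in kb. The genes from P4HA2 at 116 kb to IRF1 at 408 kb lie at 0.58 to 1.04. Of these, PDLIM4 at 184 kb was called in neither contrast. CSF2 lies at 2.68 and 2.84, while RAPGEF6, FNIP1 and RAD50 lie near 0.

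The chemokine cluster on chromosome 4 that holds CXCL8, CXCL1 and CXCL2 had 13 genes, of which only the growth factor genes AREG and EREG, ligands of the EGF receptor, were tested. Both were called higher in bezafibrate against control and in combination against ascites, where 17.6% and 17.8% of all genes were called. AREG rose by 0.56 (SE 0.0921, edgeR adjusted p 1e-05) and 0.64 (SE 0.0937, edgeR adjusted p 1.35e-06) with the drug without and with ascites, and EREG by 0.48 (SE 0.0473, edgeR adjusted p 1.88e-10) and 0.52 (SE 0.0476, edgeR adjusted p 3.65e-11). CXCL5, PF4, PPBP and PF4V1 had 0 reads in all 12 libraries. Over all 9 lists, members left out, 94 genes were tested. By edgeR 0 of them were called in ascites against control, in combination against bezafibrate or in the interaction, and 12, 11 and 2 had an unadjusted p under 0.05. DESeq2 called 0, 1 and 0, the 1 being the keratin gene KRT18 (adjusted p 0.0302), which was named after its values had been seen.

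The genes whose log2 CPM followed that of CSF2 most closely over the 12 libraries, among 11922 genes ranked, were TFF2 (Pearson r 0.992), SLC2A1 (0.991), GOLGA7B (0.990), CD59 (0.990) and UQCR10 (0.990). The libraries fall into 2 sets by the drug, which every one of these coefficients spans, and they are given as a description. TFF2, a secreted trefoil peptide of mucosal surfaces, had mean levels of 7.84 CPM in control, 8.50 in ascites, 23.5 in bezafibrate and 24.6 in combination cells. SLC2A1, the glucose transporter GLUT1, had 80.1, 82.2, 103.9 and 105.9 CPM in the same order. Likeness in the correlation therefore did not mean a like size of change. Within the set, the correlation with CSF2 over the 12 libraries was 0.72 for LIF, -0.29 for CSF1 and -0.91 for IL18.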

How the data were processed

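RNA was sequenced from 12 CAOV3 libraries, 3 in each of 4 groups, with groups and replicate numbers from the labels. Each library came as 1 deposited table with a whole-number count for each gene. The submitters' processing notes name Trimmomatic 0.39, STAR 2.7.9a, RSEM 1.3.3, DESeq2 1.28.1 and GRCh38. Whether the deposited counts are rounded RSEM estimates, whether they used strand, and the annotation are not given in the sources used here; reads of overlapping or near-identical genes are therefore uncertain. Counts were used as deposited.

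The filter was filterByExpr of edgeR 4.0.16 (count of 10, total of 15; 12470 genes kept, 7207 removed, at least 99.96% of reads kept). Libraries were scaled by TMM and genes tested in R 4.3.3 with the quasi-likelihood F test (robust glmQLFit, 1 mean per group over all 12 libraries, 8 residual degrees of freedom). Calls were made at an adjusted p (Benjamini-Hochberg, all tested genes) below 0.05. The SE was taken from the log2 fold change and its F statistic. CPM is the count over the TMM-scaled library size. The fit was tested on simulated data with known changes. Replicates of a group differed by a chi-square of 1.45 to 4.45 per degree of freedom, so none was a duplicate. Same-numbered libraries did not deviate together (18 correlations from -0.14 to 0.06), so the numbers were not taken as pairs.

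The members and the gene lists were chosen with earlier results of these data known, and are described by counts beside the share of all genes called. Named genes were every member, up to 3 called genes at each end of each list whose mean reached 1 CPM, and the 5 genes closest to CSF2 by correlation of log2 CPM (prior count 2). Promoter sequences and gene positions came from RefSeq on GRCh38.p14, matched by symbol. Alternatives were RLE and upper-quartile scaling, no filter, a filter of 1 CPM in 3 libraries, DESeq2 1.42.0, only the groups of a contrast, a replicate block and leaving out each library.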

Additional observations from a re-analysis of the deposited data

How the results depend on the processing

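CSF2 in bezafibrate against ascites was called in all 13 alternatives, with log2 fold changes of 2.24 to 2.58 and adjusted p of at most 1.11e-09. Of 25 results on members, 16 were scored as unchanged throughout and 1 lost its call somewhere, that of LIF in combination against ascites (7 of 13). Values of CSF2 given without a test were scored by their size and not by their sign. The CSF2 interaction is among the 16, though it ranged from -0.047 to 0.2928 when 1 library was left out. Of 35 results on other named genes, 26 kept direction and call and 9 lost the call somewhere. Apart from the CSF2 interaction, values that changed sign were uncalled and near 0, and did so only when 1 library was left out. CSF1 ranged from -0.0897 to 0.0567 in ascites against control, -0.0472 to 0.0649 in bezafibrate against control, -0.2104 to 0.0157 in combination against ascites, -0.2071 to 0.0176 in combination against bezafibrate, -0.2145 to 0.0112 in combination against control and -0.203 to 0.022 in the interaction. LIF ranged from -0.1018 to 0.0327 in ascites against control, and IL18 from -0.0865 to 0.0499 in combination against bezafibrate.

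Members called in bezafibrate against control were 2 without a filter, against 1, through CCL20. Members called in combination against ascites were 1 in place of 2 with upper-quartile scaling, with DESeq2, with only these groups and with the replicate block, and 1 to 3 when 1 library was left out. The 3 came without combination replicate 2, the combination library with the fewest CCL20 reads (3), since CCL20 then passed the filter through its higher group; that call supports nothing.

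All genes called in ascites against control were 11, and 59 without a filter, 33 with only these groups and 3 to 5 without 1 library. In combination against bezafibrate they were 16, and 52 without a filter, 7 with only these groups and 9 to 28 without 1 library (28 without combination replicate 3). In the interaction they were 0 (445 at an unadjusted p under 0.05), and 36 without a filter, 1 with DESeq2, 1 with the replicate block and 0 to 3 without 1 library; the cause of these shifts was not tested. The replicate block rests on numbers that did not pair the libraries. Depth limits the 6 members below the filter, at 0 to 13 reads per library.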
